A study of Apis mellifera with 18 samples.

Results

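The transcripts described here were those with a like share of the counts in 3 tissues of the worker honey bee, the brain, the ventriculus and the Malpighian tubules. They were selected on the measured values themselves. CPM values, counts scaled to a library sum of 1000000, were formed, patriline P21 was left out, and a coding transcript was kept when its median CPM over the other 5 patrilines was at least 100 in each tissue and the largest tissue median was at most 1.5 times the smallest. Of 23458 coding transcripts among 28396 features, 530 reached 100 CPM in each tissue and 44 of these also met the limit on the ratio. The closeness of the 3 tissue medians is therefore what chose the 44 transcripts, and it is given below as a description, with no test.

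Each library was 1 pool of RNA from 5 workers of 1 patriline of Colony 36, with 300 ng of RNA from each worker, and there were 6 patrilines (P1, P7, P8, P11, P21 and P24) and 3 tissues, hence 18 libraries. A patriline is the set of daughters of 1 drone within a colony. The paper picked 3 of the 6 patrilines for high survival after a lethal dose and 3 for low survival. Which patriline was of which kind is not in the labels. All workers were collected from the hive at the age of 7 days, received the neonicotinoid insecticide clothianidin at 4.27 ppb in sucrose solution for 4 h on the next day, and were frozen 24 h after the feeder was taken away. No library came from unexposed workers, so that every level below is a level after exposure. With 1 pool for each patriline and tissue, the replicates of a tissue are patrilines. The difference between patrilines and the spread between pools cannot be told apart within 1 tissue. The same workers gave all 3 tissues, so that the tissues together do not separate a patriline from its set of workers either.

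The brain, the ventriculus (the midgut, in which food is digested and absorbed) and the Malpighian tubules (the excretory organ of insects) differ widely in what they make. Genes whose products every cell needs, such as those of protein synthesis, protein folding and respiration, are commonly described as housekeeping genes. Some of them serve as internal references in quantitative PCR, a use that rests on a like level in the samples compared. A read count gives only the share of a transcript in its library, so that whether a transcript is even between tissues depends on what else the library holds and on how libraries are scaled to each other.

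The total count was between 39722329 and 87946924 per library, and the 44 transcripts together held 0.861% to 1.41% of it. The tissue labels were checked against marker lists. The 16 brain markers summed to 1846 to 10127 CPM in the brain and 32.4 to 56.2 CPM in the ventriculus, but to 493.4 to 1290 CPM in the tubules, where the opsin gene UVop was higher than in the brain. The highest brain medians of the list were those of nAChRa1, Lop1, Oa1 and Nrx-1 (582, 570, 256 and 207 CPM). The gene sums of Syt1, nAChRa2, nAChRa4, nAChRa6, nAChRa7, nAChRa8 and Para had tissue medians of at most 0.965 CPM. These genes did not inform the label. The ventriculus markers, both aminopeptidase N genes, summed to 13735 to 19874 CPM in the ventriculus. Their sum was at most 58.2 CPM in the brain and 791 to 7242 CPM in the tubules. In the ventriculus it was nearly all LOC551180, with a median of 17201.5 CPM. The transcript compared for LOC551224 had medians of 2.20 CPM in the brain, 0.958 in the ventriculus and 3.34 in the tubules, against the list. The gene sum of LOC551224 had a highest tissue median of 67.6 CPM. CYP9Q2, a detoxification P450, had its highest median in the tubules at 23137 CPM. CYP9Q1, another P450 listed for the tubules, went against the list, with medians of 7030 CPM in the ventriculus and 6706 CPM in the tubules. Of the markers of other tissues, the 9 major royal jelly proteins, listed for the hypopharyngeal gland of the head, stood out. They held 28.1% of the counts of the P11 brain library and 19.2% of the P21 brain library, against 0.856% to 3.97% in the other 4 brain libraries and at most 1.39% in the libraries of the other tissues. Mrjp1, Mrjp3, Mrjp5 and Mrjp6 had brain medians of 20363, 6100, 912 and 171 CPM, their highest tissue. Mrjp7 and Mrjp8 were higher in the tubules (328 and 134 CPM) than in the brain (280 and 27.5 CPM). The transcripts compared for Mrjp2, Mrjp4 and Mrjp9 had medians of at most 1.86 CPM. Summed CPM of the fat body markers was 52.5 to 2450, of the muscle markers 10.7 to 441, of the hemocyte marker 7.18 to 175, and of the venom gland markers 0.381 to 650 in all libraries but the P7 ventriculus, where it was 7764.

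The 44 transcripts came from 44 genes, and no 2 of these genes were neighbours. In the RefSeq table used for names, 43 of the genes carry a LOC number alone, and no role is given for them here. The one with a name was Ppib, cyclophilin B, a peptidyl-prolyl isomerase that helps proteins fold in the endoplasmic reticulum. The 3 tissue medians differed by 1.02 to 1.495 times, with a median ratio of 1.34 over the 44 transcripts. For 3 of them the ratio was at most 1.1. The tissue with the highest median was the tubules for 22 transcripts, the ventriculus for 12 and the brain for 10, and the lowest was the ventriculus for 19, the brain for 17 and the tubules for 8. The median of the 44 median CPM values was 219.7 in the brain, 197.6 in the ventriculus and 200.004 in the tubules. CPM is not divided by transcript length, so that it compares libraries for 1 transcript and does not rank the transcripts by abundance.

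**Figure D1:**
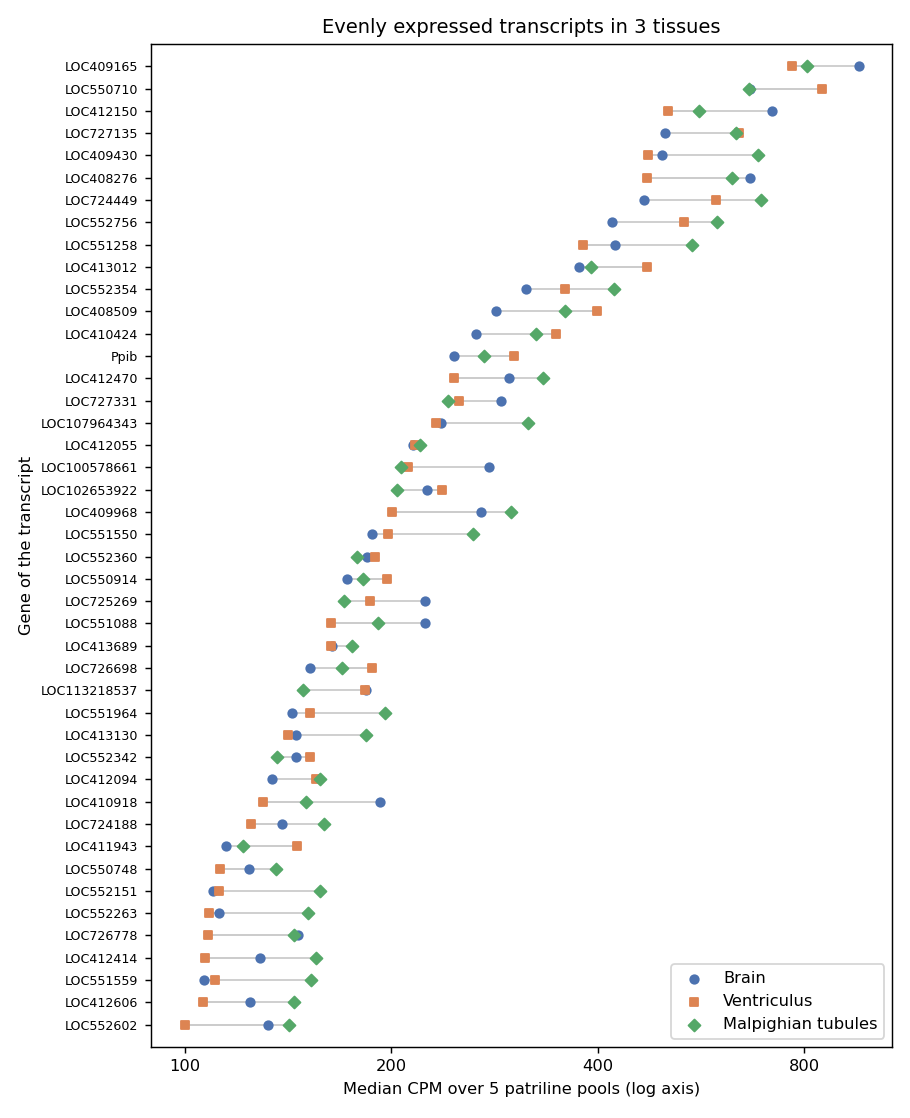
Median CPM of the 44 transcripts over 5 patriline pools (log axis) in brain, ventriculus and Malpighian tubules, 1 transcript per line, named by its gene. The 3 points of a line lie within 1.5-fold of each other because the rule required it, and medians run from 100.0 CPM (LOC552602, ventriculus) to 961.3 CPM (LOC409165, brain).

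The transcript with the smallest ratio, 1.02, was that of LOC412055 (XM_006564456.3). In the brain its CPM was 242.7 in P1, 215.4 in P7, 227.5 in P8, 171.4 in P11 and 207.7 in P24, a mean of 212.9 ± 26.7 (SD, n = 5). In the ventriculus it was 217.1, 247.0, 204.8, 199.2 and 236.7 in the same order, a mean of 221.0 ± 20.4 (SD, n = 5). In the tubules it was 191.6, 234.0, 220.6, 186.8 and 254.2, a mean of 217.4 ± 28.5 (SD, n = 5). The 5 values of each tissue overlapped those of the other tissues, and P11 was the lowest pool in all 3. In P21, the patriline outside the rule, it had 168.3 CPM in the brain, 135.6 in the ventriculus and 199.8 in the tubules, a ratio of 1.47. The next smallest ratios were those of LOC552360 (1.06) and LOC413689 (1.07).

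LOC409165 (XM_006559506.3) had the highest CPM of the 44 in its lowest tissue. Its brain CPM was 961.3 in P1, 1077.6 in P7, 996.9 in P8, 653.6 in P11 and 886.4 in P24. The ventriculus libraries had 769.1, 760.0, 785.4, 895.6 and 755.7 CPM and the tubule libraries 807.9, 774.6, 938.0, 968.1 and 782.0 CPM in the same order. P11 was the lowest of the 5 pools in the brain and the highest in both other tissues, and the groups overlapped. In P21 the 3 values were 730.1, 953.2 and 965.4 CPM. The other transcripts with the highest CPM in their lowest tissue were those of LOC550710, LOC412150, LOC727135, LOC409430 and LOC408276, with lowest-tissue medians between 471.8 and 664.3 CPM.

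Ppib (NM_001242544.1) had 247.2, 251.7, 262.6, 151.3 and 199.3 CPM in the brain of P1, P7, P8, P11 and P24. The ventriculus libraries had 339.5, 302.0, 370.5, 284.5 and 268.2 CPM and the tubule libraries 273.0, 237.0, 337.0, 305.7 and 198.4 CPM in the same order. Every ventriculus value lay above every brain value, whereas the tubule values overlapped those of both, although the ratio of its medians was only 1.22. In P21 it had 185.6 CPM in the brain, 337.0 in the ventriculus and 292.4 in the tubules, a ratio of 1.82.

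At the limit of the ratio, the transcripts of LOC409968 (1.495), LOC724449 (1.48), LOC410918 (1.48) and LOC412414 (1.45) were just inside, and those of LOC726184 (1.51), LOC726407 (1.52), LOC411730 (1.53) and LOC113219318 (1.54) just outside. At the floor of 100 CPM, LOC552602 with 100.0 CPM in the ventriculus and LOC412606 with 106.2 CPM in the same tissue were just inside. LOC410607 with 93.1 CPM in the brain and LOC409079 with 90.4 CPM in the tubules were just under it, with ratios of 1.36 and 1.39. Both limits thus ran through transcripts with close values.

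Evenness between tissues did not mean a like spread between pools. The coefficient of variation over the 5 pools had a median over the 44 transcripts of 18.0% in the brain (range 2.38% to 33.8%), 9.08% in the ventriculus (3.07% to 32.8%) and 10.1% in the tubules (1.98% to 57.5%). Over the 530 transcripts above the floor the medians were 15.8%, 10.8% and 9.25%. The steadiest of the 44 between pools was that of LOC412414 (XM_006566479.3), with an SD of 0.10 on the log2 CPM scale after tissue means were removed. It had 129.0, 132.2, 128.8, 101.8 and 121.1 CPM in the brain, 102.7, 107.0, 110.4, 115.0 and 105.2 CPM in the ventriculus, and 155.4, 164.1, 148.6, 146.8 and 158.7 CPM in the tubules of P1, P7, P8, P11 and P24. Its tubule values were all above those of the other tissues.

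The transcript of LOC102653922 (XM_026444141.1) varied most, with an SD of 0.65 on the same scale. In the tubules it had 204.1 CPM in P1, 229.1 in P7, 364.9 in P8, 98.0 in P11 and 87.0 in P24. Its brain values were 209.3, 225.6, 252.1, 82.0 and 227.0 CPM, with P11 far below the other pools, and its ventriculus values 172.3, 264.5, 214.0, 237.4 and 264.1 CPM. The medians of these 3 tissues nevertheless differed by only 1.16 times, so that a small ratio of medians held beside a wide spread. LOC113218537 (XM_026445196.1) had the next widest spread after LOC410918, with 103.3 CPM in P7 and 91.6 CPM in P11 in the ventriculus against 183.1 to 190.0 CPM in the other 3 pools of the rule.

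The lower CPM in the P11 brain was shared by most of the 44 transcripts. Their summed CPM in the brain was 12495 in P1, 12515 in P7, 12396 in P8, 11873 in P24, 8609 in P11 and 9602 in P21. P11 was the lowest of the 5 brain pools of the rule for 40 of the 44 transcripts. The same count over the 530 transcripts above the floor was not made. The 40 therefore do not set the 44 apart from them. The libraries of P11 and P21 were those with the high share of royal jelly protein counts. With these transcripts left out of the library sum, the summed CPM in the 6 brain libraries was 11886 to 12909, with 11975 in P11 and 11886 in P21. P11 was then the lowest of 5 for 23 transcripts, and the median coefficient of variation in the brain was 9.35%. The sum was 11699.7 to 13149 CPM in the ventriculus and 12475 to 14148 CPM in the tubules.

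**Figure D2:**
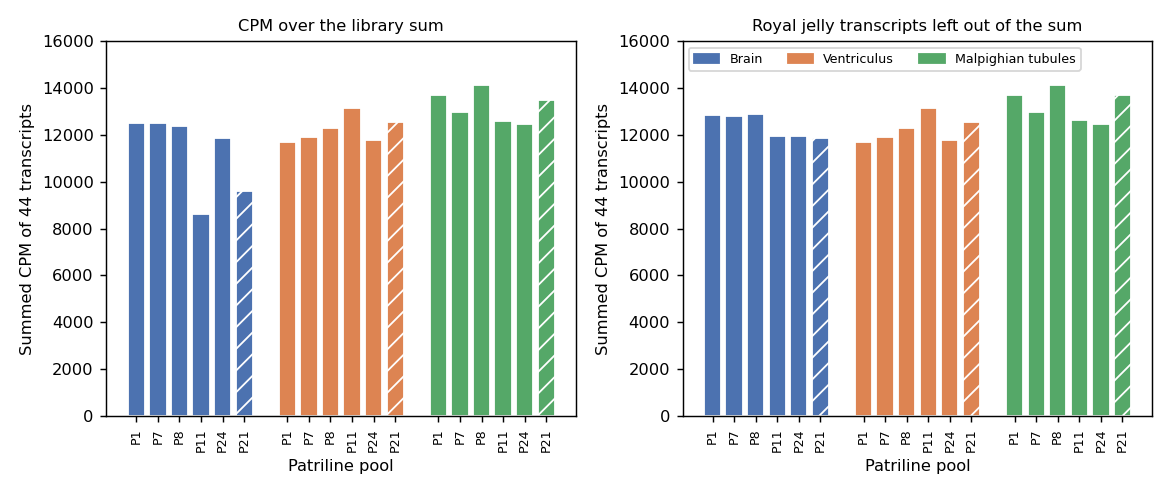
Summed CPM of the 44 transcripts in each of the 18 libraries, over the whole library sum and over the sum without the major royal jelly protein transcripts, 1 bar per patriline pool (P21 hatched). The P11 and P21 brain libraries lie at 8609 and 9602 CPM over the whole sum and at 11975 and 11886 CPM without royal jelly transcripts, beside the other brain libraries.

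P21 played no part in the rule and gave 1 library per tissue, so that its ratios have no replicate and no test. Of the 530 transcripts above the floor, 461 (87.0%) differed by more than 1.5 times between the highest and the lowest tissue of P21. Of the 44 evenly expressed transcripts, 20 did so and 24 stayed within 1.5 times. Their ratios in P21 ran from 1.097 (LOC552756) to 2.27 (LOC410424), with a median of 1.47. In P21 the brain was the lowest tissue for 35 of the 44 and the highest for none, and the tubules were the highest for 30. Without the royal jelly transcripts in the library sum, 33 of the 44 stayed within 1.5 times and 11 did not, 9 of which were among the 20. Of the 530, 430 differed by more than 1.5 times on that scale, against 461 over the whole sum. Among the 44, the brain was then the lowest tissue for 20 and the highest for 9, and the tubules were the highest for 25. The P21 brain library also had 58.2 CPM of the ventriculus markers and 732 CPM of CYP9Q1, which was at most 99.4 CPM in the other brain libraries. The part of other tissues' RNA in the P21 ratios was not tested.

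**Figure D3:**
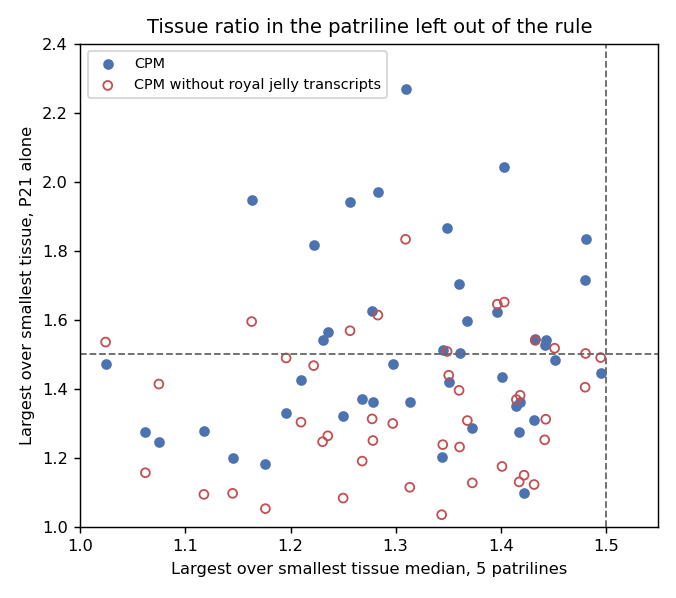
Largest over smallest tissue for each of the 44 transcripts, from the medians of the 5 patrilines of the rule (x axis) and from P21 alone (y axis), with dashed lines at 1.5. On the y axis 24 of the 44 points lie within 1.5 and 20 above it when CPM is taken over the whole library sum, and 33 and 11 when royal jelly transcripts are left out.

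Within single patrilines, the same comparison of 3 libraries put 32 of the 44 transcripts within 1.5 times in P1, 34 in P7, 41 in P8, 15 in P11 and 32 in P24. Of the 530 transcripts above the floor, 41, 36, 50, 49 and 38 were within it in the same order. These patrilines set the medians and so are no independent check. Without royal jelly transcripts, P11 reached 34 of the 44 and 95 of the 530. In all 6 patrilines at once, 6 transcripts stayed within 1.5 times, those of LOC409165, LOC550748, LOC552602, LOC412055, LOC726778 and LOC727331, and 16 did so without royal jelly transcripts. LOC550748 kept ratios between 1.15 and 1.43 and LOC727331 between 1.16 and 1.37.

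The evenness of the 44 transcripts rested on scaling by the library sum. TMM and the median of ratios both scale libraries so that most transcripts have a like level between them. Under TMM the median over the 44 transcripts became 127.0 in the brain, 384.5 in the ventriculus and 172.6 in the tubules, in normalized CPM. All 44 were then highest in the ventriculus and lowest in the brain, with ratios of 2.37 to 4.84 (median 3.35), and none met the rule. With the median of ratios the 3 values were 129.3, 402.9 and 177.8, and again none of the 44 met it. A different 164 coding transcripts met the rule under TMM and 161 under the median of ratios, with 151 in both sets. In plain CPM, those 164 had medians of 292.7 in the brain, 92.3 in the ventriculus and 212.1 in the tubules. The label of evenly expressed thus holds for CPM over the library sum and not for these other scalings.

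**Figure D4:**
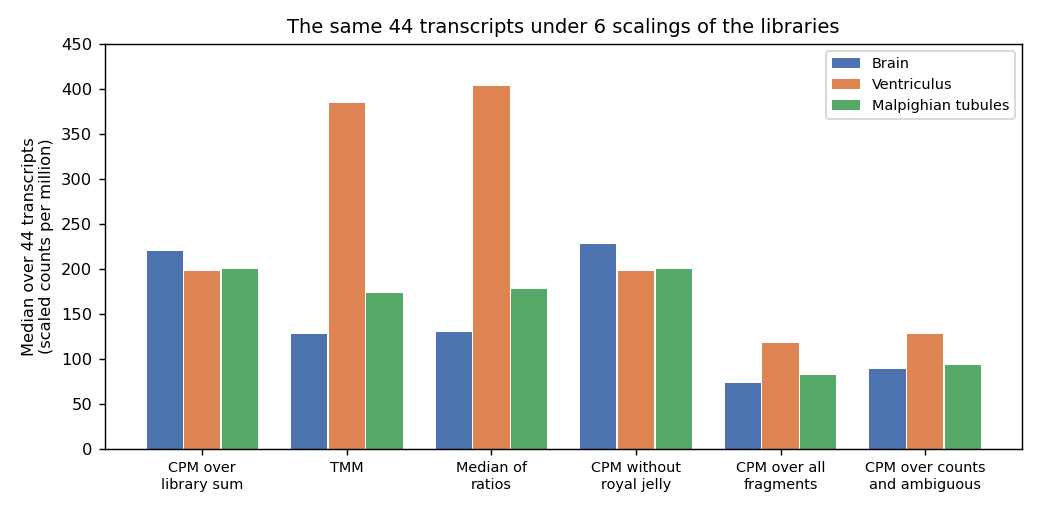
Median over the 44 transcripts of their tissue medians under 6 scalings of the same libraries, in scaled CPM, 1 bar per tissue. The bars are near each other over the library sum (219.7, 197.6 and 200.004), and the ventriculus stands highest under TMM (384.5) and the median of ratios (402.9).

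A change of scaling factors moves every transcript of a library alike, and the size of this shift is read from the medians over all transcripts. Over the 9847 transcripts with a value, the median log2 difference of tissue medians, brain minus ventriculus, was 1.91 in CPM and 0.16 under TMM. For the 44 it was 0.0062 in CPM, with a range of -0.49 to 0.57, and -1.74 under TMM. The place of the 44 near 0 in CPM was set by the rule. For tubules minus ventriculus the medians in CPM were 1.21 over all transcripts and 0.18 over the 44. The TMM factors were 0.472 to 0.613 in the ventriculus, 1.19 to 1.78 in the brain and 1.08 to 1.34 in the tubules. In the ventriculus the 100 most abundant transcripts held 70.5% to 75.8% of counts, against 39.7% to 58.6% in the brain and 42.3% to 47.9% in the tubules. Which scaling stands nearer to the RNA per cell was not tested, and fewer cells of a type and less RNA per cell cannot be told apart in bulk tissue.

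The fragments that the counting assigned to no transcript differed between tissues as well. The ambiguous class, of fragments that overlap more than 1 feature, held 42.0% to 50.3% of all fragments in the brain, 30.9% to 32.9% in the ventriculus and 45.6% to 47.2% in the tubules. When CPM was taken over all fragments, the medians of the 44 transcripts were 72.6 in the brain, 117.9 in the ventriculus and 81.5 in the tubules. On that scale 31 coding transcripts met the rule, and 2 of the 44 were among them. Of the 44, 8 were still within 1.5 times and 41 were highest in the ventriculus. Over the counts plus the ambiguous class, 36 met the rule, 6 of the 44 among them.

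Of the 44 transcripts, 41 (93.2%) belonged to genes with 1 transcript in the RefSeq table used for names, as did 508 (95.8%) of the 530 above the floor and 5050 (21.5%) of all 23458. The share was thus as high over all transcripts above the floor as among the even ones. Counting by transcript leaves fragments shared by several transcripts of a gene in the ambiguous class. The 3 genes with more than 1 transcript were LOC412055, LOC412470 and LOC410918. In LOC412055 and LOC412470 the other transcripts had medians of at most 1.88 CPM. In LOC410918 the transcript XM_026439426.1 had medians of 224.1 CPM in the brain, 5.92 in the ventriculus and 13.2 in the tubules. The sum of the 3 transcripts of LOC410918 was 480.4, 174.4 and 223.6 CPM in the same order, and this gene no longer met the rule.

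Genes of housekeeping lists were compared by their gene names. The lists of ribosomal proteins, translation factors, the proteasome, the V-ATPase, respiration, the cytoskeleton, chaperones and qPCR reference genes held 28 genes found by name, of which 10 had a transcript above the floor and none was among the 44. The 44 were 8.30% of the 530 transcripts above the floor. All genes of the 44 but Ppib carry a LOC number alone, so that a match by gene name could not find them. The 0 of 10 therefore does not show whether housekeeping genes are among the 44. All 10 came from the 16 genes with 1 transcript, and none from the 12 with several. The ribosomal proteins RpLP1, RpL35 and Rpl41 reached the floor with ratios of 2.05, 2.55 and 2.33, and each was highest in the tubules. RpLP1 had medians of 509.3 CPM in the brain, 577.4 in the ventriculus and 1046 in the tubules. The closest to the limit was Rpn1, listed with the proteasome, with medians of 193.5, 115.9 and 185.5 CPM and a ratio of 1.67. Hsc70-3, a chaperone of the endoplasmic reticulum, had 1553, 781 and 1519 CPM.

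Of the qPCR reference genes on the list, 8 were found and 2 reached the floor. Hsp90, a chaperone, had medians of 7658 CPM in the brain, 326.7 in the ventriculus and 396.9 in the tubules, a ratio of 23.4. Vha16, a subunit of the proton pump V-ATPase, had 1136, 1556 and 6334 CPM, a ratio of 5.58. RpL32, a ribosomal protein gene with 4 transcripts, had a median of 0 CPM in each tissue for its highest transcript. Low CPM in genes with several transcripts cannot be told apart from loss of shared fragments to the ambiguous class, so that these values do not measure the genes' expression.

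Whether the 44 transcripts varied with patriline was asked with a measure that the rule did not use. A quasi-likelihood F test in edgeR compared the 5 patrilines over their 15 libraries with tissue as a covariate, and p-values were adjusted by the Benjamini-Hochberg method over 10263 transcripts. At an adjusted p under 0.05, 108 transcripts (1.05%) varied with patriline, and 1 of the 44 did so. At an unadjusted p under 0.05 there were 1607 transcripts (15.7%), and 8 of the 44 (18.2%). DESeq2's likelihood ratio test called 1227 of 9865 transcripts (12.4%) and 4 of the 44 (9.09%). Over the 530 transcripts above the floor, edgeR called 1 (0.189%), which is the one among the 44, 61 (11.5%) had an unadjusted p under 0.05, and DESeq2 called 48 (9.06%). The 44 thus held 1 call of edgeR's test and had a DESeq2 share close to that of the 530, and whether their share at an unadjusted p differed from it was not tested. Without P11 the test called 1 transcript, and none of the 44, and without P1, P7, P8 or P24 it called 34 to 59 and again none of the 44, while 3 to 10 of the 44 had an unadjusted p under 0.05 over these 5 settings. With only the P11 brain library left out, it called 120 transcripts and none of the 44. The same workers gave all 3 tissues, and the test took these as separate libraries. A difference of a set of workers that recurred in its tissues was thus counted as a difference of patriline.

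The transcript that passed was XM_026439427.1 of LOC410918, with an adjusted p of 0.0482. In the brain this transcript had 215.8 CPM in P1, 165.4 in P7, 192.4 in P8, 95.8 in P11 and 262.4 in P24. The ventriculus libraries had 143.5, 93.7, 146.9, 78.0 and 129.97 CPM and the tubule libraries 150.4, 120.8, 177.6, 129.7 and 208.5 CPM in the same order. P7 and P11 were the lowest pair of the 5 in each of the 3 tissues. P21 had 110.9 CPM in the brain, 157.7 in the ventriculus and 190.2 in the tubules. The call was lost without any single patriline, with adjusted p between 0.0921 and 0.240, and without the P11 brain library it was 0.0806. Over 16 alternatives the adjusted p ran from 2.81e-06 to 0.394 and passed in 4.

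The other 43 transcripts had an adjusted p of 0.231 or more in edgeR's test. The lowest of these belonged to LOC724188, which had 138.9, 164.8, 141.5, 89.95 and 127.8 CPM in the brain, 126.0, 124.8, 111.3, 134.4 and 101.8 CPM in the ventriculus, and 171.9, 166.3, 159.6, 157.8 and 143.0 CPM in the tubules. P24 was the lowest pool in both the ventriculus and the tubules. Next came LOC726698, LOC409968, LOC413689 and Ppib, with adjusted p of 0.262, 0.267, 0.274 and 0.280. A p above the threshold does not show that the pools had the same level.

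**Figure D5:**
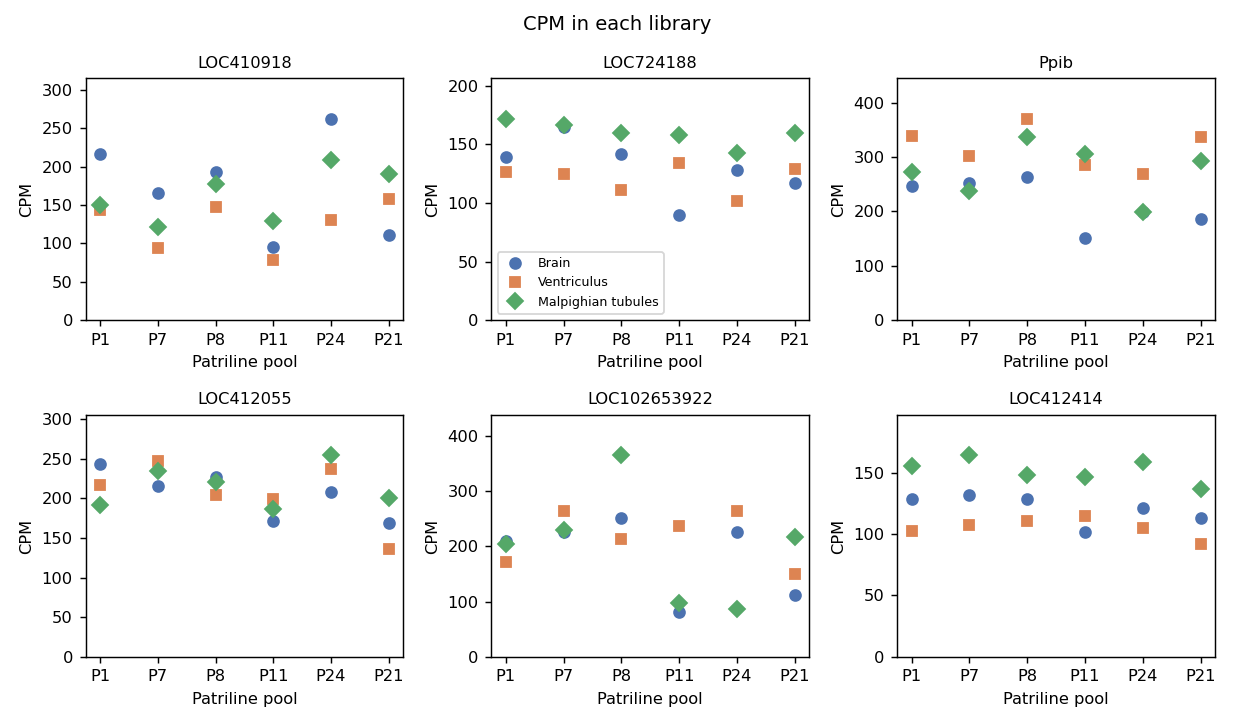
CPM of 6 of the 44 transcripts in the 18 libraries, 1 panel per gene, with patriline pools on the x axis and a point per tissue (P21 was left out of the rule). In the panel of LOC410918, P7 and P11 are the lowest pair of the 5 pools of the rule in each tissue, and in each panel the P11 brain point lies below the other brain points of the rule.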

How the data were processed

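The authors prepared libraries with a stranded total RNA kit, and their processing notes name Trimmomatic, STAR, HTSeq, MultiQC and edgeR. Tool versions, strandedness of the counting and the annotation used are not given in the sources at hand. The deposited values are raw counts of fragments per transcript, 1 file per library, not normalized. The 5 HTSeq classes assigned to no transcript were left out of library sums and tests: the ambiguous class held 30.9% to 50.3% of fragments and the class without a feature 6.26% to 17.6%. Antisense or overlapping genes could share reads. Names came from a RefSeq table of another build than the one the paper names, which matched 27887 of 28396 features by accession, so that no coordinates and no sequences are printed. Library totals were 39722329 to 87946924 counts, so that precision is limited by the number of pools more than by depth. The 45 pairs of libraries of 1 tissue differed beyond sampling noise, with at least 49.3 as the chi-square per degree of freedom.

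Members, lists and tests were chosen with earlier results of these data known. The labels gave tissue and patriline, and no tolerance groups were compared. Patriline was tested on transcripts kept by filterByExpr (minimum count 10, total count 15) with TMM factors, by glmQLFit and glmQLFTest in edgeR 4.0.16 (R 4.3.3, limma 3.58.1, DESeq2 1.42.0, Python 3.11.15), with Benjamini-Hochberg adjustment over all transcripts. The p-values set the differences between patrilines against the spread left after the tissue and patriline terms were fitted. With 1 pool for each patriline and tissue, the spread between pools of a patriline was not measured. On simulated data over 10035 transcripts, with 1 of 5 patrilines raised in all 3 tissues, the script called 59 of 100 transcripts raised 2-fold, 91 of 100 raised 4-fold and 6 unchanged ones. Each simulated library was drawn independently, and apart from the raised transcripts no difference was shared by the tissues of a patriline. The 6 therefore do not give a rate of false calls for the real libraries. Named were the 6 transcripts with the highest CPM in their lowest tissue, the 6 with the smallest ratio, the 4 on either side of the ratio limit and 2 on either side of the floor, the 8 with the lowest adjusted p, the 4 steadiest, named list genes and the qPCR reference genes, of which 1 is not reported here. Those with the widest spread or the largest P21 ratios, those within 1.5 times in each patriline, and genes with several transcripts were named after their values were seen. Alternatives were other scalings, floors, limits, filters and tests, gene sums, all 6 patrilines, and each patriline or tissue left out. CPM over all fragments or over counts plus the ambiguous class, the setting without the P11 brain library, and the P21 ratio without royal jelly transcripts were added after the data were seen.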

Additional observations from a re-analysis of the deposited data

How the results depend on the processing

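The number of transcripts that met the rule, 44, was 164 under TMM, 161 under the median of ratios, 76 with a floor of 50 CPM, 21 with a floor of 200 CPM, 12 with a lower limit on the ratio and 145 with a limit of 2 times. It was 44 to 47 with one patriline left out, 47 with all 6 patrilines, 44 without royal jelly transcripts and 43 without the P11 brain library. Of the 44 themselves, 0 met the rule under TMM and under the median of ratios, 2 over all fragments, 6 over counts plus the ambiguous class, 21 with the higher floor and 12 with the lower limit, and 39 to 43 with one patriline left out. In P21, 20 of the 44 passed 1.5 times, and 11 did so without royal jelly transcripts. Of the 530 above the floor, 461 and 430 did so.

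Of the 108 transcripts that varied with patriline in edgeR's test, the count became 46 with all 6 patrilines, 757 in edgeR's likelihood ratio test and 1227 in DESeq2, 1 (without P11) to 59 (without P7) with one patriline left out, 9 without the brain, 6 without the tubules and 0 without the ventriculus, where 844 had an unadjusted p under 0.05. Of the 44, 1 had varied. This was 4 in DESeq2 and 0 in edgeR's test with all 6 patrilines, with library size only, without a filter, with each patriline (0 to 0) or tissue left out, and without the P11 brain library. In the settings with 0, edgeR's test gave 1 to 10 of the 44 an unadjusted p under 0.05. DESeq2's likelihood ratio test did so for 11. The causes were not tested. No paired analysis was possible because the replicate number, the patriline, is the factor that was tested and cannot also be a block.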
